A study of Mus musculus with 2 samples.

Results

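The genes described here encode the nuclear subunits of respiratory chain complexes I, II and III. Members were all genes whose symbol in the platform annotation starts with Ndufa, Ndufb, Ndufc, Ndufs, Ndufv or Uqcr, without the Ndufaf assembly factors, together with Sdha, Sdhb, Sdhc, Sdhd and Cyc1. This gave 49 of the 19938 genes with a probe set of their own, of which 36 were named for complex I, 4 for complex II and 9 for complex III. Expression was measured on 2 Affymetrix arrays. The Tg array held RNA from cTECs, the epithelial cells of the thymic cortex, of Aire transgenic mice. In these mice Aire, the regulator that medullary thymic epithelium uses to transcribe tissue-restricted genes, was driven by the promoter of Psmb11, the gene of the thymoproteasome subunit β5t. The non-Tg array held cTEC RNA of control mice. The mice of both groups were NOD, a strain prone to autoimmune diabetes, at day 7, and the source labels name 7 Tg and 5 non-Tg, taken here as counts of pooled animals.

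Complex I takes electrons from NADH and passes them to ubiquinone while moving protons out of the mitochondrial matrix. Complex II, succinate dehydrogenase, is also an enzyme of the citric acid cycle and feeds electrons to ubiquinone without moving protons. Complex III takes them from ubiquinone to cytochrome c. Complex I is L-shaped, with a matrix arm that carries the flavin and iron-sulfur clusters and a membrane arm that pumps protons. Its core subunits are shared with bacteria, and some of them are encoded by mitochondrial DNA. The many accessory subunits surround that core.

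Levels are log2 values as deposited, and each log2 ratio is Tg minus non-Tg. Each group had 1 array, so that no difference has a replicate check or a p-value. The nearest available spread was 0.302, the SD of the log2 ratio of 1 probe set, estimated from pairs of probe sets of the same gene in 658 genes. Variation between animals or between amplifications is not part of it. A gene passed the filter if its level on either array reached the median of the probe sets of that array, which was 5.43 for Tg and 5.45 for non-Tg. All 49 members passed it, as did 11422 genes in all. No member had a value under the floor of 4.80 that was set for ratios of dim genes. The level of a probe set also depends on its probe sequences, so levels were compared between arrays for the same gene and no gene was ranked above another by level.

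Aire was at 7.33 on the Tg and 6.06 on the non-Tg array, and the RNA of both carried the markers of the labelled cell type. All 12 markers of cortical epithelium passed the filter, among them Psmb11 at 10.51 on the Tg and 10.15 on the non-Tg array. Thymocyte RNA was also present on both arrays, with Rag1, a recombinase of developing T cells, at 10.89 and 10.96. Of the 12 thymocyte genes measured, 11 passed the filter and 9 of these had log2 ratios below 0. The surface genes Thy1, at 8.89 and 9.57 (-0.68), and Cd3d, at 8.58 and 9.07 (-0.49), had the lowest, and the other 9 lay between -0.28 and 0.18. Summed over all 12 thymocyte genes, the log2 signal was 12.50 for Tg and 12.69 for non-Tg (difference -0.20). Of the cortical markers, 11 of 12 had log2 ratios above 0, and the log2 of their summed signal was 14.61 and 14.50. For all genes past the filter, 50.6% of ratios lay above 0 and 48.4% below. Of genes of other cells, 6 of 7 measured passed the filter for medullary epithelium and 2 of 9 for macrophages and dendritic cells. For fibroblasts 5 of 8 passed, for endothelium 5 of 6 and for erythroid cells 1 of 3. None of those past the filter was 2-fold apart. At a smaller threshold, a log2 ratio of 0.32 in size, Postn of fibroblasts (0.51) and Pecam1 of endothelium (0.48) were higher in Tg. So was Krt5 of medullary epithelium, at 10.73 on the Tg and 10.39 on the non-Tg array (0.34). Tyrobp of macrophages and dendritic cells (-0.58) and Tnfrsf11a of medullary epithelium (-0.39) were lower. The summed signal of all measured genes differed by 0.27 for medullary epithelium and 0.23 for fibroblasts, more in size than for thymocytes. It differed by -0.10 for macrophages and dendritic cells, 0.03 for endothelium and -0.04 for erythroid cells. In mixed RNA, fewer cells of a type and less RNA per cell cannot be told apart. The part of RNA from thymocytes or from these other cells in the differences below was not tested.

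The promoters of some members hold short letter strings known from respiratory genes. They are shown because the transcription factors concerned, NRF1, the ETS factor GABPA and YY1, are the ones usually named as shared regulators of these genes. RefSeq promoters (build GRCm38.p6, 250 bases before to 50 after the start) were found for 40 of the 49 genes, 42 promoters in all. On either strand, the NRF1 letters GCGCATGCG were in 4 of the 42 (9.52%) and in 1.75% of all 32851 promoters in the table. The ETS letters CCGGAAGTG were in 2 (4.76%, against 2.03%). The YY1 letters AAGATGGCG were in 5 (11.9%, against 1.40%). The NRF1 letters overlap their own reverse complement, and matches on both strands coincide in Uqcrc1 and in Ndufa11. A match describes letters and not a bound site. The windows below run 5′ to 3′ on the strand of the gene, with the matched letters in capitals, and start with 3 genes of complex III.
Uqcrc1, NRF1, chr9:108936668-108936696, plus strand: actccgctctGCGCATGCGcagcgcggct
Uqcr11, NRF1 on the opposite strand, chr10:80406808-80406836, minus strand: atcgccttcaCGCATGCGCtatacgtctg
Uqcrh, ETS on the opposite strand, chr4:116075064-116075092, minus strand: gagtatgccgCACTTCCGGccaggtcgcc
Ndufs4, YY1, chr13:114388045-114388069, minus strand: tgcctacaggAAGATGGCGgcggtc
Ndufs6, YY1, chr13:73328433-73328459, minus strand: ggtcaccggcAAGATGGCGgcggtgct
Ndufs7, YY1, chr10:80249463-80249491, plus strand: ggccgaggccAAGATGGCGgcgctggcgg
Ndufa9, YY1, chr6:126849097-126849125, minus strand: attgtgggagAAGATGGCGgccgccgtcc
Ndufc1, YY1, chr3:51408915-51408943, minus strand: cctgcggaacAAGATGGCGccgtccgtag
The 5 YY1 matches all lay on the strand of the gene and began between base 23 and base 36, counted from the annotated start as base 1. In the last 100 bases of all promoters these letters were also found more often on the strand of the gene, in 221 promoters against 78 with their reverse complement. The other matches were those of NRF1 in Ndufa8 and Ndufa11 and of the ETS letters in Ndufs3.

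No member was 2-fold apart between the arrays, in either direction. Over all genes past the filter, 0.797% were at least 2-fold higher and 0.376% at least 2-fold lower in Tg. The log2 ratios of the 49 members ran from -0.59 to 0.39 with a median of -0.06 and an SD of 0.21, against a median of 0.01 and an SD of 0.33 over all genes past the filter. The ratio was above 0 for 20 members, below 0 for 28 and exactly 0 for 1, while 50.6% of all genes past the filter lay above 0 and 48.4% below. At a smaller threshold, a log2 ratio of 0.32 or more in size, 1 member was higher and 6 were lower in Tg. These are 2.04% and 12.2% of the members, against a background of 15.0% higher and 12.1% lower. Among the 5625 genes that passed a filter at the 75th percentile, the background was 19.5% higher and 13.1% lower. The share of lower members was thus near the background, and the share of members beyond 0.32 on the higher side was below it.

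**Figure D1:**
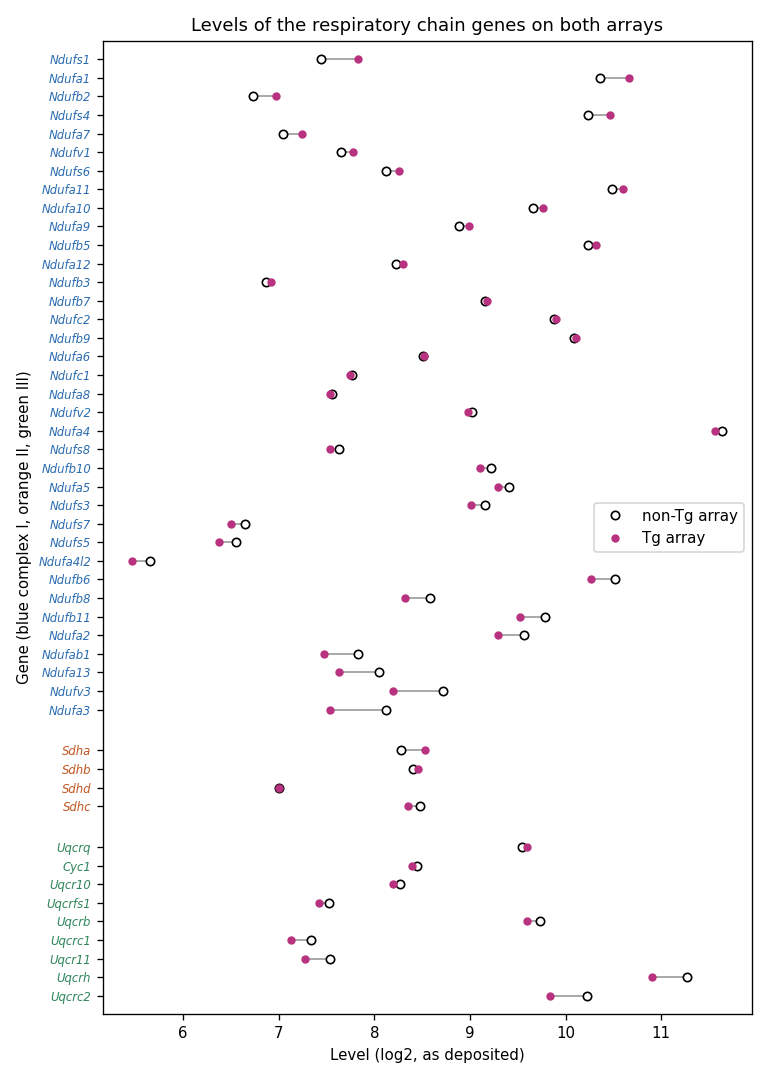
Level of each of the 49 genes on the Tg array (filled) and the non-Tg array (open), in log2 units as deposited, grouped by complex and ordered within it by the log2 ratio. Paired points lie close together throughout, the widest gap being that of Ndufa3 (7.53 in Tg, 8.13 in non-Tg).

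Complex III was the complex whose genes lay most to one side. Of its 9 genes, 8 had a lower value on the Tg array, with a median log2 ratio of -0.14 and a range from -0.38 to 0.04. For comparison, 19 of the 36 complex I genes lay below 0, as did 1 of the 4 complex II genes, or 3 of them after quantile normalization. The medians of those complexes were -0.02 and 0.03, the latter turning to -0.03 after quantile normalization. The ranges of the 3 complexes overlapped, and every complex III ratio lay within the range of complex I. Genes of 1 complex read on the same pair of arrays are not replicates, so the difference between the complexes was not tested. In level, the median over the probe sets of complex I was 8.42 on the Tg and 8.65 on the non-Tg array, that of complex II 8.40 and 8.34, and that of complex III 8.39 and 8.45. For complex I the level medians do not fall between the same genes on both arrays. Their gap is therefore not the median log2 ratio of the complex, which was -0.02. The levels of complexes II and III lay within the range of complex I, from 5.47 to 11.56 on the Tg array.

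The catalytic subunits of complex III differed little. Cyc1, which encodes cytochrome c1, was at 8.39 on the Tg and 8.45 on the non-Tg array (log2 ratio -0.06). Uqcrfs1, the Rieske iron-sulfur protein, was at 7.42 and 7.52 (-0.10). Both core proteins, which face the matrix and carry no redox group, had wider ratios. Uqcrc2 was at 9.84 on the Tg and 10.22 on the non-Tg array, a log2 ratio of -0.38 (1.30-fold lower), the lowest of the complex by brightest probe sets. Uqcrc1 was at 7.13 and 7.34 (-0.21).

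Among the accessory subunits, Uqcrh, the hinge protein that helps cytochrome c1 meet cytochrome c, was at 10.91 on the Tg and 11.27 on the non-Tg array, which is a log2 ratio of -0.36 (1.28-fold lower). RefSeq lists the pseudogenes Uqcrh-ps1 and Uqcrh-ps2, and whether the probe set also reads them is not known here. Uqcr11, a small membrane subunit, was at 7.27 and 7.54 (-0.27). Uqcrb, which lies near the ubiquinone site, was at 9.59 and 9.73 (-0.14). Uqcr10 was at 8.19 and 8.27 (-0.07). Uqcrq was the only gene of the complex with a higher value in Tg, at 9.59 against 9.55 (0.04). Of the 9 ratios, those of Uqcrh and Uqcrc2 exceeded the spread of 0.302 between probe sets and the other 7 did not. With its probe sets averaged, Uqcr11 exceeded it too, at -0.53. By brightest probe sets, Uqcrh and Uqcrc2 were also lower by at least 0.32, which is 22.2% of the complex. Over all genes past the filter, 12.1% were lower and 15.0% higher by at least that much. The SD of their ratios was 0.33, so ratios of this size were not rare. Of the 6 genes with the NRF1 or ETS letters, Uqcrc1, Uqcr11, Uqcrh, Ndufs3 (-0.15) and Ndufa8 (-0.03) had ratios below 0, and Ndufa11 (0.12) above. Uqcrc1, Uqcr11 and Uqcrh belong to complex III, where 8 of 9 genes lay below 0. The share below 0 was 57.1% of all members and 48.4% of all genes past the filter. A link between letters and ratio was not tested.

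**Figure D2:**
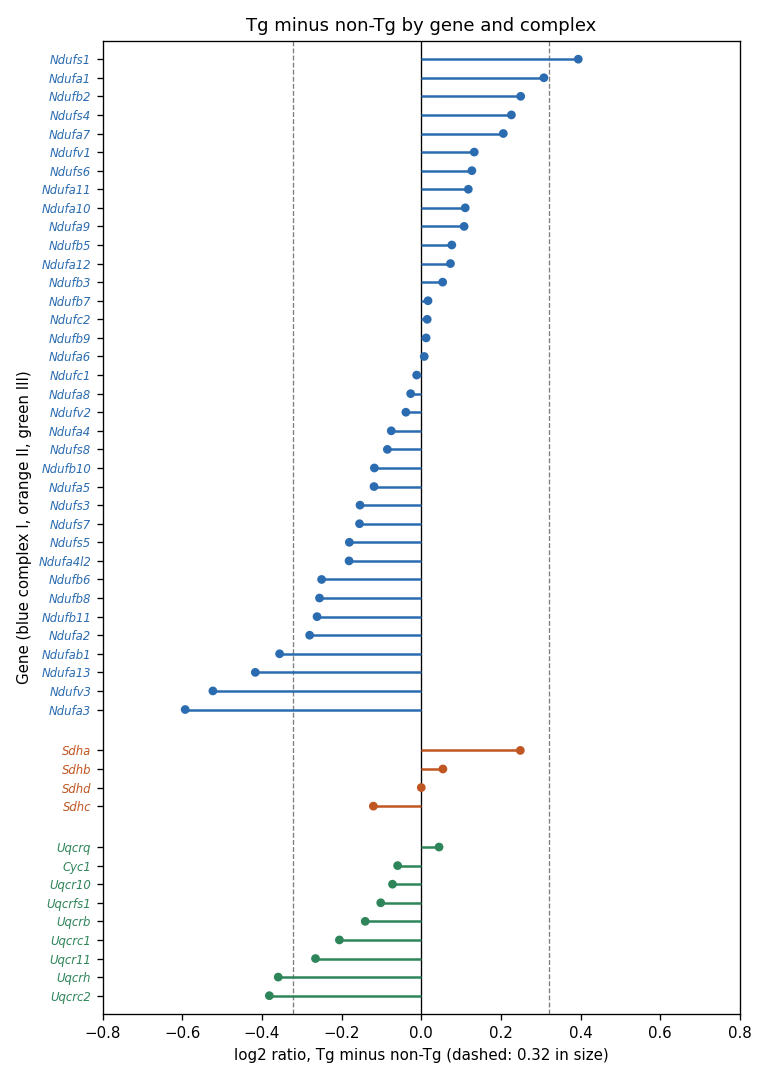
Log2 ratio of each gene, Tg minus non-Tg, by complex, with dashed lines at 0.32 on either side. Of the complex III genes, 8 of 9 point to the lower side, while complex I genes spread to both sides.

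Complex II genes lay on both sides of 0, with ratios from -0.12 to 0.25. Sdha, the flavoprotein that oxidises succinate, was at 8.53 on the Tg and 8.28 on the non-Tg array (log2 ratio 0.25). Sdhb, the iron-sulfur subunit, was at 8.46 and 8.40 (0.05). The membrane anchors had ratios of 0 or below. Sdhc was at 8.35 and 8.47 (-0.12). Sdhd had the same value, 7.00, on both arrays, as did 809 of the 28856 probe sets. No ratio of this complex exceeded the spread between probe sets.

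In complex I, the core subunits of the matrix arm lay on both sides of 0. Values of 6 of them were analysed here. Ndufs1, the largest of them and a carrier of iron-sulfur clusters, was at 7.83 on the Tg and 7.44 on the non-Tg array. Its log2 ratio of 0.39 (1.31-fold) was the highest of all 49 genes and the only one above 0.32. Ndufv1, which binds NADH and the flavin, was at 7.78 and 7.65 (0.13). Its partner in the same module, Ndufv2, was at 8.98 and 9.02 (-0.04).

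The core subunits that line the path to ubiquinone had lower values in Tg, each by less than the spread between probe sets. Ndufs3 was at 9.01 on the Tg and 9.16 on the non-Tg array (log2 ratio -0.15). Ndufs7 was at 6.50 and 6.65 (-0.16), and Ndufs8 at 7.54 and 7.63 (-0.09). Over the 6 core genes the median was -0.06, with 2 ratios above 0 and 4 below.

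Accessory subunits of the matrix arm had 6 of 9 ratios above 0 and a median of 0.07. Ndufv3, a small subunit of the NADH-binding module, stood furthest from the others. It was at 8.19 on the Tg and 8.72 on the non-Tg array, which is a log2 ratio of -0.52 (1.44-fold lower). Ndufa2 was also lower, at 9.29 against 9.57 (-0.28). On the other side, Ndufs4, a subunit whose loss causes a mitochondrial encephalopathy, was at 10.46 and 10.24 (0.23). Ndufa7 was at 7.25 and 7.04 (0.21), and Ndufs6, which helps hold an iron-sulfur module, at 8.25 and 8.13 (0.13). The remaining 4, Ndufa5, Ndufa6, Ndufa9 and Ndufa12, had ratios from -0.12 to 0.11. Of the 5 genes with the YY1 letters, Ndufs4, Ndufs6 and Ndufa9 had ratios above 0, and Ndufs7 and Ndufc1 below.

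Of the 18 accessory genes of the membrane arm, 9 had ratios above 0 and 9 below, with a median of 0.00. The lowest ratio of all 49 genes was in this group. Ndufa3 was at 7.53 on the Tg and 8.13 on the non-Tg array, which is a log2 ratio of -0.59 (1.51-fold lower). Ndufa13, also known as GRIM-19 and required for assembly of the complex, was at 7.63 and 8.05 (-0.42, 1.34-fold lower). Ndufb11, Ndufb8 and Ndufb6 followed at -0.26, -0.26 and -0.25. At the other end, Ndufa1, a small subunit near the joint of both arms, was at 10.66 and 10.36 (0.31), just short of 0.32. Ndufb2 was at 6.98 and 6.73 (0.25), while Ndufa11 and Ndufa10 had ratios of 0.12 and 0.11. Ndufs5 was at 6.38 and 6.56 (-0.18). The other 8 genes of this arm, from Ndufb5 at 0.08 to Ndufb10 at -0.12, had ratios between those values.

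Some genes named for complex I have other roles. Ndufab1 encodes the mitochondrial acyl carrier protein, which sits in both arms and also serves fatty acid and lipoate synthesis. It was at 7.47 on the Tg and 7.83 on the non-Tg array, which is a log2 ratio of -0.36 (1.28-fold lower). Ndufa4, whose product is now assigned to complex IV, was at 11.56 and 11.64 (-0.08). Its paralog Ndufa4l2, known as a hypoxia-induced gene, was at 5.47 and 5.65 (-0.18), close to the filter on both arrays. Without Ndufa4 and Ndufa4l2 the complex I median was 0.00.

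**Figure D3:**
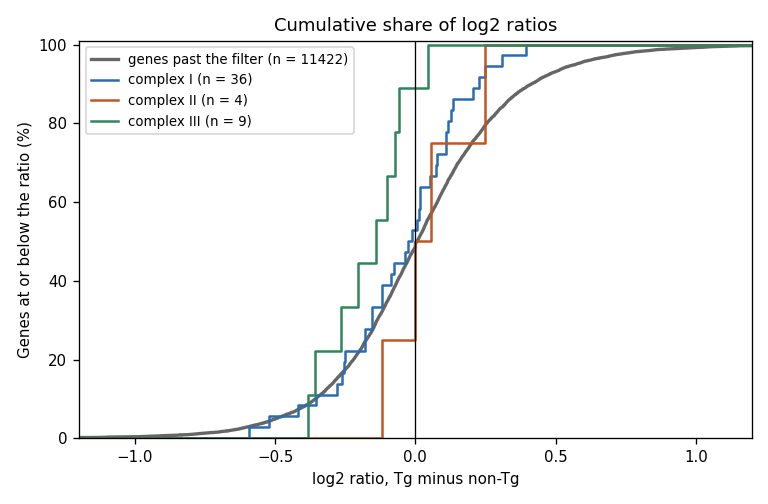
Cumulative share of log2 ratios (Tg minus non-Tg) for the genes of each complex and for the 11422 genes past the filter, in percent. The complex III curve lies to the left of the others over most of its length, reaching 88.9% below 0, against 48.4% for all genes.

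Further probe sets of the same gene gave a check on single ratios. Of the 49 genes, 7 had more than 1 probe set of their own, 57 probe sets in all, and the ratios of 6 of these genes had 1 sign. Uqcrb, with 3 probe sets, had ratios of -0.14, -0.30 and -0.30. The second probe set of Uqcr11 was at 5.90 on the Tg and 6.70 on the non-Tg array, a ratio of -0.80 against -0.27 for the brighter one. Both complex III genes with several probe sets thus read lower in Tg with each of them. In complex I, Ndufab1 had -0.36 and -0.39, Ndufb11 -0.26 and -0.49, Ndufs3 -0.15 and -0.05, and Ndufa11 0.12 and 0.09. Ndufc1 had -0.01 and 0.01. Such probe sets share their RNA, and some carry the same transcript accessions, so they are not replicates. RefSeq lists 7 non-coding copies with symbols of these families, and probe sets for Ndufa11, Ndufa12, Ndufab1, Ndufs5, Ndufs6 and Uqcrh could read such a copy as well. No probe sequences were at hand for the other genes with several probe sets, Uqcrb, Uqcr11, Ndufb11, Ndufs3 and Ndufc1. Whether each of their probe sets reads the gene itself or a copy elsewhere is not known here.

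**Figure D4:**
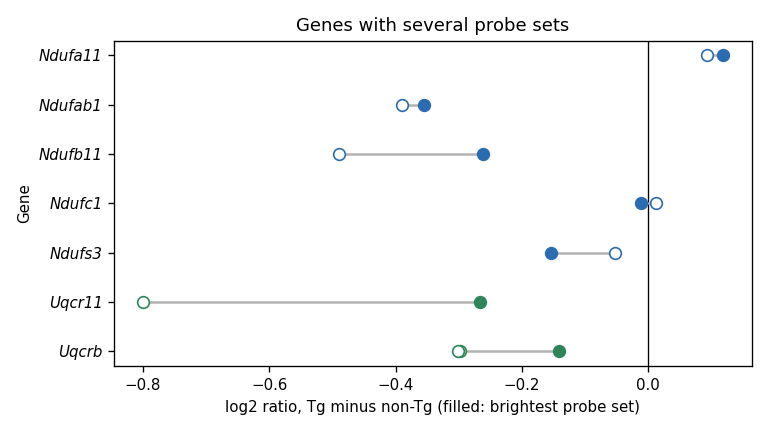
Log2 ratio of every probe set for the 7 genes with several, Tg minus non-Tg, with the brightest probe set filled. All probe sets of Uqcrb and Uqcr11 lie below 0, and those of Ndufc1 lie on both sides of it.

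The other enzymes of oxidative phosphorylation were read from lists chosen for their function. Complex IV, cytochrome c oxidase, had 12 of 15 measured nuclear genes past the filter, 9 of them with ratios below 0 and a median of -0.22. None was above 0.32 and 2 were below -0.32 (16.7%, against 12.1% of all genes). These were Cox8a, at 8.59 on the Tg and 9.11 on the non-Tg array (-0.52), and Cox6a1, at 9.67 and 10.07 (-0.40). The highest ratios were those of Cox4i1 (0.22) and Cox7a2l (0.13). ATP synthase had 18 of 19 genes past the filter, 12 below 0, and a median of -0.07. Its lowest ratios were those of Atp5j and Atp5j2, both at -0.30, and its highest were Atp5o at 0.33, which lost its place above 0.32 after quantile normalization or centring, and Atp5b at 0.18. Of the mitochondrially encoded subunits, ND3 alone was named on a probe set of its own, at 11.10 on the Tg and 11.08 on the non-Tg array (0.03).

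The mobile carriers gave mixed ratios. Cycs, the cytochrome c to which complex III passes electrons, was at 9.94 on the Tg and 10.31 on the non-Tg array (-0.37, 1.30-fold lower). Genes of coenzyme Q synthesis and handling spread around 0, from Coq6 at -0.24 to Coq3 at 0.31 and Coq5 at 0.42. With Cycs, 12 of 13 genes passed the filter, 5 of them above 0 and 7 below, with a median of -0.06. Beyond 0.32 in size were Coq5 on the higher side and Cycs on the lower side, each 8.33% of the list.

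The ratios of assembly factors of complexes I to III had an SD of 0.33, against 0.21 for the subunits. Of 24 measured genes, 21 passed the filter, 10 above 0 and 11 below, with a median of -0.03. That median depended on the filter and was -0.24 with the filter at the 75th percentile. There were 2 genes above 0.32 (9.52%, against 15.0% of all genes) and 5 below -0.32 (23.8%, against 12.1%). The lowest were the membrane arm factors Tmem126b, at 7.39 on the Tg and 7.97 on the non-Tg array (-0.57), and Timmdc1, at 6.44 and 6.95 (-0.51). The highest were Sdhaf4, a factor of complex II, at 6.61 and 5.98 (0.63), and Ndufaf3 at 6.76 and 6.31 (0.45). The complex III factor Uqcc2 had a ratio of -0.42 and Bcs1l, which inserts the Rieske protein, 0.14.

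The citric acid cycle, which supplies NADH and succinate, had 13 of 13 measured genes past the filter, 8 above 0 and 5 below, and a median of 0.08. Idh3a, the catalytic subunit of the NAD-dependent isocitrate dehydrogenase, was at 7.02 on the Tg and 6.10 on the non-Tg array (0.92, 1.89-fold higher). Its partner subunit Idh3b was at 8.19 and 8.66 (-0.47). Suclg2 had the next highest ratio (0.27) and Sucla2 the next lowest (-0.40). Those 2 genes encode alternative subunits of succinyl-CoA ligase. Beyond 0.32 in size, 1 gene was higher (7.69%) and 3 were lower (23.1%), against 15.0% and 12.1% of all genes.

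The list of regulators of respiratory genes also held genes that act in mitochondria, such as Tfb1m and Polrmt. The filter was passed by 13 of 14 measured genes, 6 above 0, 6 below and 1 at 0, with a median of 0.00. Gabpa was at 9.25 on the Tg and 8.71 on the non-Tg array (0.54) and Nrf1 at 5.90 and 5.43 (0.48), both above 0.32. These 2 genes were 15.4% of the list past the filter, near the 15.0% of all genes. On the lower side, 1 gene was beyond 0.32 in size (7.69%, against 12.1%). Nrf1 passed the filter through the Tg array alone, and Gabpa alone was left above 0.32 with the filter at the 75th percentile. Tfb1m, a methyltransferase of the mitochondrial ribosome, was at 5.55 and 6.25 (-0.69), and Polrmt, the mitochondrial RNA polymerase, had -0.27. The ratio of Yy1 was -0.07. Ppargc1a, the coactivator of mitochondrial biogenesis, was under the filter on both arrays, at 4.98 and 5.03.

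Protein genes of the mitochondrial ribosome were the largest list, with 77 of 77 past the filter, 30 above 0 and 47 below. Their median was -0.13. Beyond 0.32 in size, 7 were higher (9.09%) and 18 lower (23.4%), against 15.0% and 12.1% of all genes past the filter. The ratios of 2 reached 2-fold, Mrps18a upward at 8.23 on the Tg and 7.20 on the non-Tg array (1.04) and Mrpl40 downward at 6.91 and 8.15 (-1.24). Mrps5 had the next highest ratio (0.73) and Mrps21 the next lowest (-0.77). The SD of these ratios was 0.35, against 0.21 for complexes I to III.

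**Figure D5:**
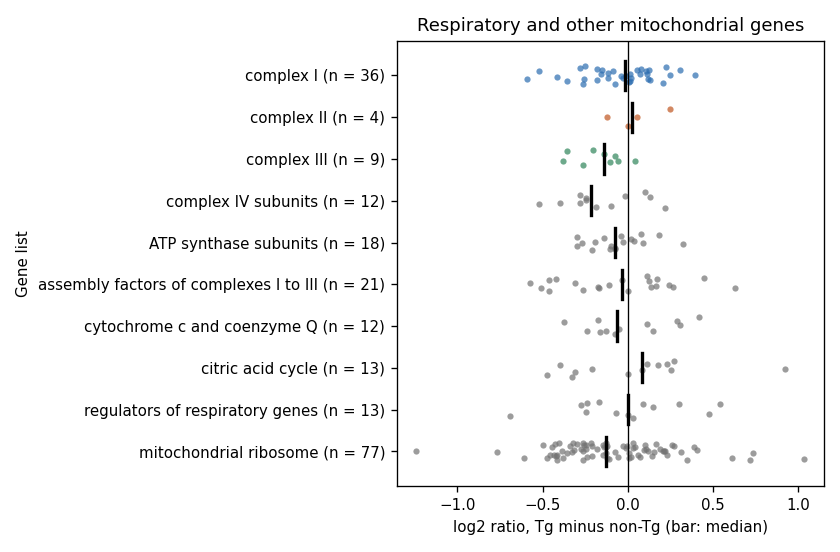
Log2 ratios (Tg minus non-Tg) of the genes past the filter in complexes I to III and in 7 lists of other mitochondrial genes, with bars at the medians. The medians of complex III (-0.14), complex IV (-0.22) and the mitochondrial ribosome (-0.13) lie below 0, and the single points beyond 1 in size belong to the mitochondrial ribosome.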

How the data were processed

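Per the labels' protocols, total RNA was column-purified and 400 pg of it was copied to cDNA, amplified and biotin-labelled with kits. The authors deposited log2 values of 28856 probe sets, 1 for each array. The log2 scale was inferred from the range (4.22 to 13.7). Software, normalization and genome build: not given in the sources used here. Of the probe sets, 21789 had 1 symbol in the platform annotation, 1621 had several and 5446 none here. All 49 member symbols matched RefSeq. For each gene, the single-symbol probe set of highest mean over both arrays was taken. Ratios of values under the 25th percentile of all values (4.80) were taken from that floor. Thresholds of size, 2-fold and a log2 ratio of 0.32, stood in for a test, as each group had 1 array and precision is limited by that number.

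The members and lists were chosen with earlier results of these data known. Named were all members of complexes II and III, the complex I core subunits, the highest and lowest ratios, and genes with several probe sets. From each list of mitochondrial genes, the 2 highest and 2 lowest past the filter were named. A few further genes (Bcs1l, Uqcc2, Yy1, Ppargc1a and the cell type markers) were named for their role after their values were seen. Some of these markers were named for the size of their ratio. Alternatives were the mean of all probe sets, no floor, quantile normalization, centring on the median ratio, no filter, a stricter filter and, for medians, leaving out Ndufa4 and Ndufa4l2. The fold rule was tested on simulated data. Python 3.11.15, numpy 2.4.6, pandas 2.3.3 and matplotlib 3.10.9 were used.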

Additional observations from a re-analysis of the deposited data

How the results depend on the processing

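No paired analysis was possible because each group has 1 array. The counts at 2-fold stayed at 0 under each alternative. At a log2 ratio of 0.32, 1 member was higher under each of them and 6 were lower, or 8 with averaged probe sets, which added Uqcr11 (-0.53) and Ndufb11 (-0.38). The 7 members beyond 0.32 as reported kept their direction and stayed beyond 0.32 under every alternative run. Most of these alternatives could not have moved them. The settings without floor, without filter and with a stricter filter cannot change the ratio of a member. Averaging cannot change a gene with 1 probe set, which all of the 7 but Ndufab1 were, and centring shifted every ratio by 0.006. The complex III median ran from -0.21 to -0.14 with 8 of 9 genes below 0 throughout, that of complex I from -0.06 to 0.00 (without Ndufa4 and Ndufa4l2), and that of complex II from -0.03 to 0.03. The number of complex II genes below 0 rose from 1 to 3 with quantile normalization and to 2 with centred ratios, because ratios near 0 crossed it. Of 643 values recomputed, 634 stayed within the spread of 0.302 between probe sets or, for counts, within 1.5 times. The other 7, besides those 2, were counts or medians of lists outside complexes I to III. Member ratios under settings that could not change them are counted among the 634. The spread of 0.302 is also larger in size than the median of each of the 3 complexes, so the 634 are no measure of their stability. The complex II median changed sign and still counted among them. So did the median of the assembly factors, which went from -0.03 to -0.24 with the stricter filter. The widest shift of a member was 0.267, for Uqcr11, when its probe sets were averaged. The number of arrays limits the precision of every value.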

Other observations

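Probe sets annotated to a member together with another gene entered no comparison. Both probe sets for Ndufb4, a membrane arm subunit, and its copy Ndufb4b read higher in Tg, at 8.75 against 8.54 (log2 ratio 0.21) and at 8.35 against 8.18 (0.17). The probe set for Ndufs5 and its pseudogene Ndufs5-ps was at 8.64 in Tg and 8.81 in non-Tg (-0.18), the same ratio to 2 decimals as the probe set of Ndufs5 alone. Ndufb1 and Ndufb4c were not analysed here.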
